A study of Mus musculus with 3 samples.

Results

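The genes described here are 8 mouse genes that bind, store or move iron, followed over single cells of the epididymis: Lcn2, Ltf, Trf, Tfrc, Fth1, Ftl1, Slc11a2 and Slc40a1. They were chosen by name among the 24335 genes of the count matrix, and all 8 were found there. The epididymis is the coiled duct in which sperm mature after leaving the testis, and its head (caput), body (corpus) and tail (cauda) were each dissociated and sequenced as 1 library with a Singleron GEXSCOPE microfluidic kit. The mice were 56-day-old wild-type C57BL/6 males with no treatment, and the labels do not say how many animals went into a library. The tissue was digested, strained and taken through a red cell lysis step. The libraries held 4961, 4959 and 4925 cell barcodes for caput, corpus and cauda, with median depths of 5077, 2654 and 2198 unique molecular identifiers (UMIs, 1 for each captured RNA molecule) per cell.

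Iron reaches cells mainly on transferrin (Trf), which is taken up by the transferrin receptor (Tfrc), and it leaves the endosome through the divalent metal transporter Slc11a2 (DMT1). Inside the cell it is stored in cages built from ferritin heavy chains (Fth1) and light chains (Ftl1), and it is exported by ferroportin (Slc40a1). Lipocalin 2 (Lcn2, siderocalin) binds the iron carriers of bacteria, and lactoferrin (Ltf) binds iron itself; both are known as antibacterial proteins of mucosal secretions and of neutrophil granules. Principal cells are the secretory and absorptive cells of the duct lining, clear cells acidify the lumen, basal cells sit under the epithelium, and macrophages take up old red cells and recycle their iron.

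Several of these genes share a regulatory hairpin in their messenger RNA, the iron-responsive element, which iron regulatory proteins bind when iron is scarce. Bound in a 5′ UTR it blocks translation, and bound in a 3′ UTR it protects the message from decay; only the second of these acts on RNA levels, the quantity measured here. The coding transcripts of the 8 genes in GENCODE M21 (GRCm38) were searched on the transcript strand for CNNNNNCAGTGN followed by 5 bases that pair with the 5 before the loop, G with T pairs allowed. The search found 7 sites in 4 of the 8 genes, and the same pattern occurred in 294 of 21877 coding genes (1.34%). They are shown because they mark where this form of the shared control sequence lies in these genes. Capitals mark the bulged C and the 6 bases of the loop.
Tfrc site 1: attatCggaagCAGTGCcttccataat
Tfrc site 2: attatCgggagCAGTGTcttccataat
Tfrc site 3: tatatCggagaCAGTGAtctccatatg
Tfrc site 4: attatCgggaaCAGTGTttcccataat
Fth1: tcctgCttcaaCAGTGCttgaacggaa
Ftl1: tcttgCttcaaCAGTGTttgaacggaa
Slc40a1: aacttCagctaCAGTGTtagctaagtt

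The Tfrc sites lay in the 3′ UTR on the plus strand of chromosome 16, at chr16:32631220-32631246, chr16:32631599-32631625, chr16:32631664-32631690 and chr16:32631711-32631737. The other 3 lay in 5′ UTRs: that of Fth1 at chr19:9982733-9982759 on the plus strand, that of Ftl1 at chr7:45459780-45459806 on the minus strand, and that of Slc40a1 at chr1:45925466-45925492 on the minus strand. The outer stem held 5 pairs of 5 in Tfrc and Slc40a1 and 4 of 5 in both ferritins. The coding transcripts of Lcn2 (chr2:32384633-32388252), Ltf (chr9:111019271-111042767), Trf (chr9:103204001-103230444) and Slc11a2 (chr15:100387898-100425072) held no match. This says only that the pattern with all 5 stem bases paired was not found in those transcripts. Hairpins with an unpaired or extra base in that stem were not searched for, so whether these genes carry one was not tested.

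Cells were sorted into types by marker genes that include none of the 8. This gave 2086, 1885 and 722 principal cells in caput, corpus and cauda, 633, 382 and 99 clear cells, 404, 147 and 63 basal cells, 122, 257 and 527 macrophages, and 139, 277 and 77 red cells. Median depths of principal cells were 7305.5, 2716 and 2128.5 UMIs. The UMIs of each type were summed within a region and given as counts per 1000000 UMIs of that sum (CPM), with exact Poisson intervals in brackets. With 1 library per region there are no replicates and no test: the intervals, all at 95%, cover counting error only, and regions cannot be told apart from libraries. A level is called higher or lower, or past the size rule, when the 2 sums differed by 4-fold or more, by over 2-fold at the near end of the interval, with 100 UMIs or more in the larger. Principal-cell RNA was found in every type: the principal markers, summed, reached 15.9 to 26.5% of their principal-cell level in the other 4 types of the caput, 16.5 to 22.7% in the corpus and 6.46 to 12.9% in the cauda, and these shares are called the background below. Cells with over 20% mitochondrial UMIs made up 3.38, 28.5 and 25.9% of the caput, corpus and cauda libraries, and 14, 21 and 14 barcodes were shared by caput and corpus, caput and cauda, and corpus and cauda.

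In principal cells the genes for the secreted iron binders were the members that passed the size rule between regions. Slc40a1 held too few UMIs for the rule, and its caput over corpus ratio was 0.108, on 21 and 93 UMIs. Lcn2 was higher in the caput than in corpus and cauda, Trf was higher in the caput than in the corpus, a call lost with thinning (2.39), and Ltf was higher in corpus and cauda than in the caput. This made 3 of the 7 members with enough UMIs that passed the size rule between caput and corpus, where 12.8% of all genes tested did. Between caput and cauda it was 2 of 7, against 12.8% of all genes. Between corpus and cauda it was 0 of 6, against 4.99%.

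**Figure D1:**
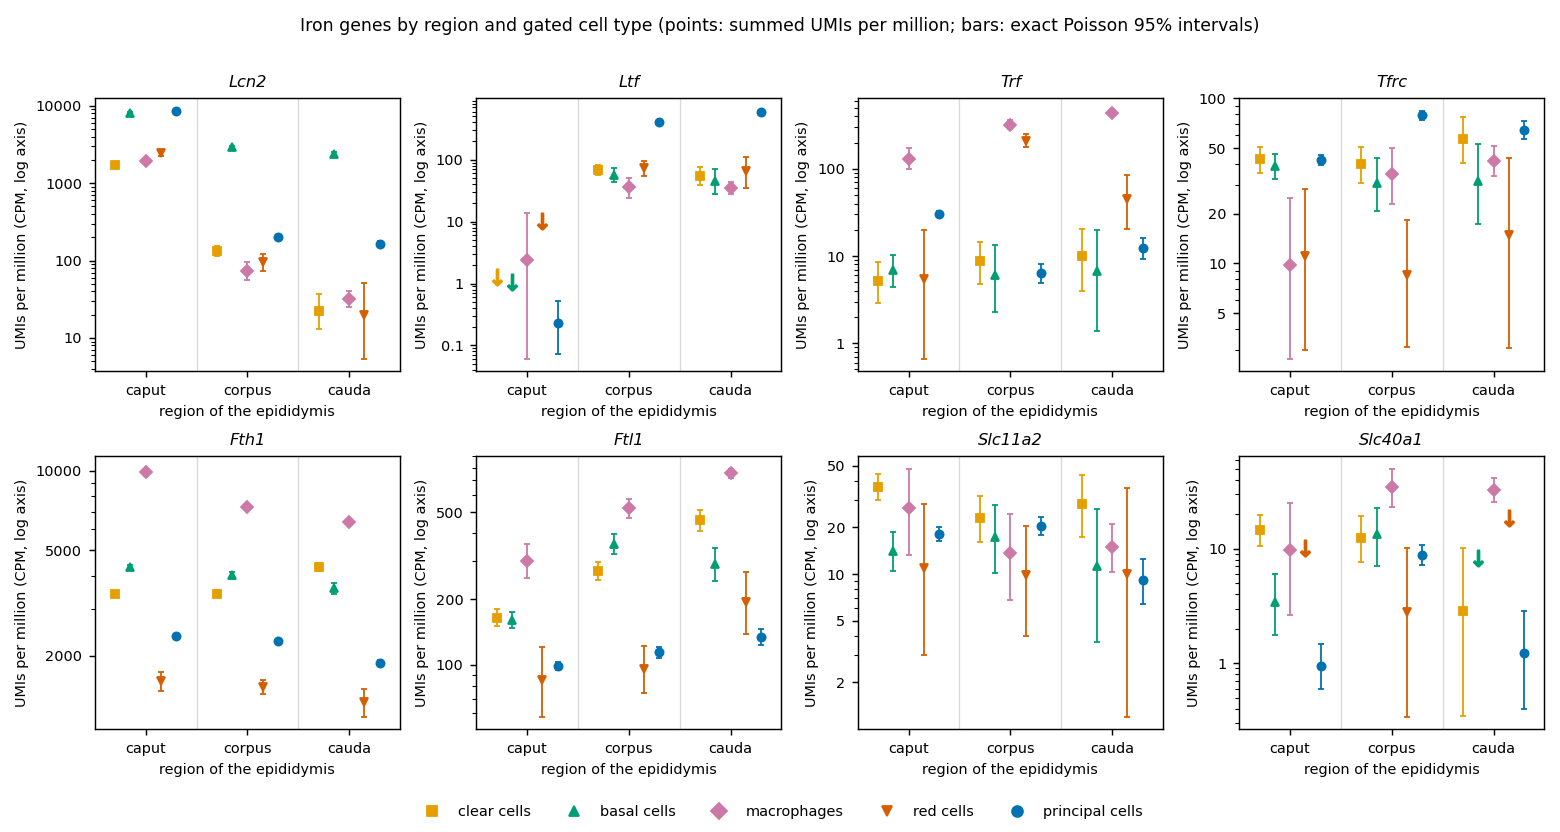
CPM on a log axis of the 8 genes in caput, corpus and cauda cells of each type, with exact 95% Poisson intervals from counting error; arrows mark the upper limit where no UMI was counted. Lcn2 stood at 205 CPM in corpus principal cells and at 2913 CPM in corpus basal cells, and Ltf was at or near 0 in every caput type.

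Lcn2 made up 8627 CPM [8589–8666] of the RNA of caput principal cells, against 205 CPM [196–214] in the corpus and 165 CPM [153–178] in the cauda. These levels rest on 190218, 2154 and 670 UMIs. A caput principal cell without Lcn2 was rare, since 99.9% of them held a UMI, against 40.7% in the corpus and 23.6% in the cauda; with each cell thinned to 1000 UMIs the shares were 98.3, 17.1 and 9.91%, against 86.2, 8.66 and 2.90% of red cells. The level in caput principal cells was 42.2-fold [40.4–44.0] that in the corpus and 52.3-fold [48.5–56.5] that in the cauda. In the cauda, 1 principal cell held 157 of the 670 UMIs, and the level without it was 128 CPM.

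Basal cells held Lcn2 at high levels in every region. Their levels were 8139.7, 2913 and 2351 CPM in caput, corpus and cauda, from 28384, 2847 and 1042 UMIs, and 100, 96.6 and 96.8% of basal cells held a UMI. Against principal cells of the same region the ratio was 0.943 in the caput, 14.2-fold [13.5–15.1] in the corpus and 14.3-fold [12.9–15.7] in the cauda. With TMM scaling the corpus and cauda ratios were 9.26 and 8.55, and with looser gates the cauda ratio was 22.3, all past the size rule. Basal cells were 147 of the 4831 corpus cells kept and 63 of the 4785 cauda cells, yet held 36.1 and 40.9% of all Lcn2 UMIs of those libraries. Within basal cells caput over corpus was 2.79 and caput over cauda 3.46, so no regional difference passed the size rule. In the cauda 1 basal cell held 254 of the 1042 UMIs, and the level without it was 2098 CPM.

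The Lcn2 seen in other types is given beside the background. In the caput, clear cells, macrophages and red cells held Lcn2 at 20.02, 22.6 and 28.2% of the principal level, and held the principal markers at 19.9, 22.96 and 26.5% of theirs. Basal cells held Lcn2 at 94.3% of the principal level there, with the principal markers at 15.9%. In the corpus, clear cells, macrophages and red cells held Lcn2 at 65.1, 36.3 and 46.8% of the principal level, above the principal markers' 18.8, 16.5 and 22.7%, and at 4.57, 2.55 and 3.29% of the basal level, where basal markers stood at 3.73, 3.88 and 1.77%. Basal markers in principal cells stood at 4.24 and 3.43% of their basal level in corpus and cauda, and Lcn2 in principal cells stood at 7.03 and 7.02% of its basal level. How much of the remaining Lcn2 of corpus and cauda principal cells is background from basal cells was not tested.

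Ltf ran the other way. Principal cells held 5 UMIs of it in the caput (0.227 CPM), against 412 CPM [400–425] in the corpus and 598 CPM [574–622] in the cauda, on 4338 and 2428 UMIs. The corpus level was 1818-fold [778–5600] and the cauda level 2637-fold [1128–8127] that of the caput, and corpus over cauda was 0.689. An Ltf UMI was held by 46.9% of corpus and 61.8% of cauda principal cells, and the top 10% of cells held 66.6 and 59.0% of the UMIs. These shares are of raw counts and also depend on cell depth. For Lcn2 the top 10% of corpus principal cells held 65.1% of the UMIs. Whether Ltf differed among principal cells beyond depth and sampling was not tested. Among red cells, at median depths of 2217 and 2210 UMIs, the shares with an Ltf UMI were 15.2 and 12.99%. Thinned to 1000 UMIs the shares were 22.6 and 37.7% of principal cells, against 6.498 and 4.35% of red cells. Principal cells held 82.7 and 73.4% of all Ltf UMIs of the corpus and cauda libraries.

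**Figure D2:**
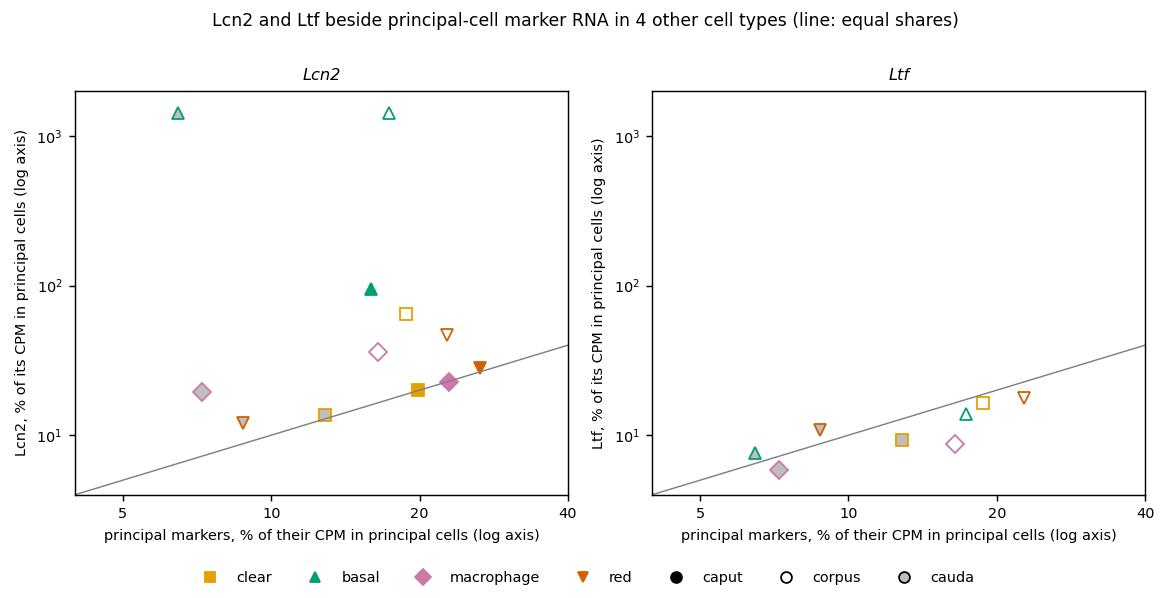
Lcn2 and Ltf in clear, basal, macrophage and red cells as a percentage of their principal-cell level (vertical axis), against the principal markers' percentage in the same cells (horizontal axis), by region; Ltf is not drawn for the caput, where principal cells held 5 UMIs. Ltf in the other types stood at 5.86 to 17.8% of its principal level, and Lcn2 of corpus and cauda basal cells at 1423 and 1425%.

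In the other types Ltf stood below its principal-cell level and close to the background. It was at 16.5, 13.9, 8.70 and 17.8% of the principal level in clear, basal, macrophage and red cells of the corpus, where the principal markers were at 18.8, 17.3, 16.5 and 22.7%. In the cauda the 4 values for Ltf were 9.23, 7.55, 5.86 and 10.8%, with the markers at 12.9, 6.46, 7.25 and 8.77%. Because Ltf is also a granule gene of neutrophils, the 10 of their 14 listed markers that were in the matrix were counted: 1, 5 and 8 cells of caput, corpus and cauda held 3 or more of them. In the corpus 94.6% of Ltf UMIs lay in cells with no neutrophil marker. In the cauda that share was 47.7%, and 92.8% when S100a8, which alone had 880 UMIs in cauda principal cells, was not counted as a marker. The 215 cauda principal cells with an S100a8 UMI held Ltf at 569 CPM and the 507 without one at 636 CPM. In the corpus the 15 with one held 758 CPM and the 1870 without one 408 CPM.

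Trf was highest in macrophages among the 5 types in every region. Macrophages held 131, 322 and 438 CPM in caput, corpus and cauda, from 54, 260 and 962 UMIs, against 30.4, 6.37 and 12.3 CPM in principal cells. Macrophage over principal was 50.5-fold [38.5–67.1] in the corpus and 35.6-fold [26.8–48.3] in the cauda; in the caput it was 4.32 on 54 UMIs, too few for the size rule. With thinning the corpus ratio was 30.0, on too few UMIs to pass, and the cauda ratio 16.7. The share of macrophages with a Trf UMI was 32.8, 51.0 and 69.8% at median depths of 2948, 2737 and 3481 UMIs, and 17.2, 25.7 and 37.8% after thinning. Among basal cells, at medians of 6002, 4265 and 4229 UMIs, it was 4.95, 4.08 and 4.76%. Macrophage markers in principal cells stood at 0.752, 0.808 and 1.98% of their macrophage level in caput, corpus and cauda, and Trf in principal cells stood at 23.1, 1.98 and 2.81% of its macrophage level. The part of macrophage RNA in the Trf of principal cells was not tested.

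Caput principal cells held 4.77-fold [3.71–6.23] the Trf of corpus principal cells, on 670 and 67 UMIs. The ratio was 2.39 with cells thinned to 1000 UMIs, below the size rule, and caput over cauda, 2.47 as counted, turned to 0.833 with thinning. Fibroblasts, gated in the same way, also held it, at 10.2, 350.4 and 126 CPM in caput, corpus and cauda, and they made up 49.2% of the corpus library's and 35.1% of the cauda library's Trf UMIs. That RNA was concentrated, since 20.3% of corpus and 16.0% of cauda fibroblasts held a UMI and the top 10% held 90.1 and 85.8% of the UMIs. Red cells of the corpus reached 211 CPM, but 116 of their 150 UMIs came from 1 cell that also held 112 UMIs of the fibroblast gene Dcn, and 48.9 CPM [33.8–68.3] remained without it.

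Tfrc, the receptor for iron-loaded transferrin, did not pass the size rule between regions. Principal cells held 42.4, 78.9 and 64.3 CPM in caput, corpus and cauda, on 934, 830 and 261 UMIs. Caput over corpus was 0.537, caput over cauda 0.659 and corpus over cauda 1.23, which turned to 0.902 with thinning. Clear cells held 42.7, 39.8 and 56.6 CPM and basal cells 38.7, 30.7 and 31.6 CPM. Macrophages held 9.73, 34.6 and 41.9 CPM, the first of these on 4 UMIs. Red cells held 11.0, 8.46 and 14.9 CPM, the lowest of the 5 types in corpus and cauda, and the corpus value was lower than in principal cells by the size rule (ratio 0.107). That call was lost, at 0.283, when haemoglobin, mitochondrial and principal marker genes were taken out of the total. Developing red cells are rich in this receptor and mature ones lose it.

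**Figure D3:**
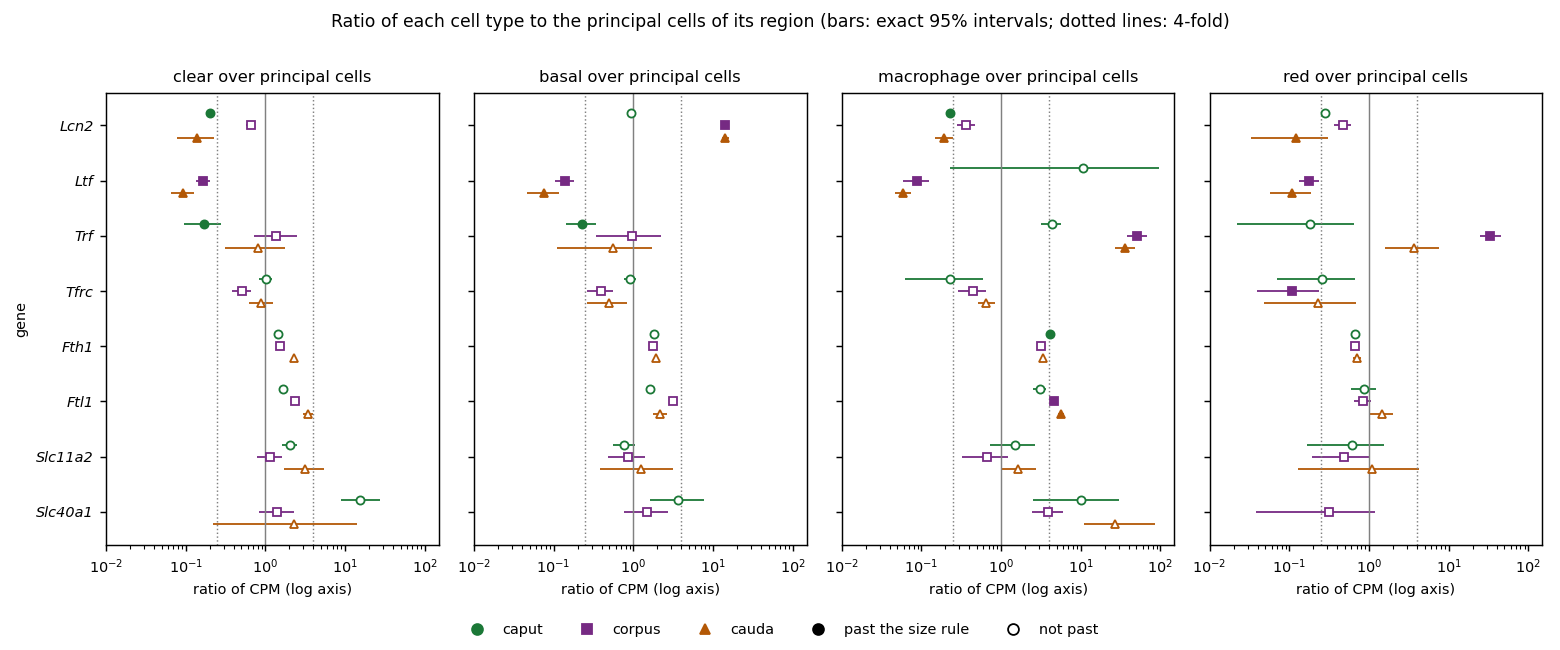
Ratio of CPM over principal cells of the same region, on a log axis, for clear, basal, macrophage and red cells with exact 95% intervals from counting error; filled points passed the size rule. Ratios with 0 UMIs in either sum are not drawn. Macrophages stood above principal cells for Trf, Fth1, Ftl1 and Slc40a1, with Trf at 50.5-fold in the corpus. The Slc40a1 values rest on 4, 28 and 72 macrophage UMIs in caput, corpus and cauda, too few for the size rule. In the caput 3 of the 4 came from 1 cell.

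The ferritin genes ranked the cell types in nearly the same order in every region, with macrophages first. Fth1, the heavy chain that oxidises iron for storage, stood at 9861, 7304 and 6405 CPM in macrophages of caput, corpus and cauda. Basal cells held 4334, 4029 and 3590.2 CPM, clear cells 3432, 3435 and 4314 CPM, principal cells 2367, 2283 and 1881 CPM, and red cells 1603, 1521 and 1335 CPM. Over the regions the ranges of macrophages and basal cells did not overlap, nor did those of clear and principal cells or of principal and red cells, whereas the ranges of basal and clear cells did. Macrophage over principal was 4.17-fold [4.04–4.30] in the caput, past the size rule, and 3.20 and 3.40 in corpus and cauda, not past it; the caput call was lost with TMM scaling (2.75) and with the reduced total (3.83). The place of red cells depended on the total used, of which haemoglobin is a part: their Fth1 ratio to principal cells was 0.677, 0.666 and 0.710 as counted, and 1.80, 1.76 and 2.40 with the reduced total. Outside haemoglobin, red cells held the principal markers at 66.5, 55.9 and 28.8% of their principal level in caput, corpus and cauda.

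Ftl1, the light chain that helps the iron core form, also had macrophages first. They held 299, 521 and 755 CPM in caput, corpus and cauda, clear cells 164, 268 and 459 CPM, basal cells 160.02, 358 and 289 CPM, principal cells 98.4, 114 and 134 CPM, and red cells 85.4, 95.8 and 194 CPM. Red over principal was 0.868, 0.839 and 1.45 as counted, and 2.30, 2.21 and 4.92 with the reduced total. Macrophage over principal was 3.04 in the caput, 4.56-fold [4.07–5.10] in the corpus and 5.64-fold [5.12–6.23] in the cauda, and the last of these passed the size rule under every setting tried, while the corpus value was 3.55 with TMM scaling. Neither ferritin passed it between regions in principal cells: Fth1 gave 1.04 for caput over corpus (0.903 with thinning), 1.26 for caput over cauda and 1.21 for corpus over cauda, and Ftl1 gave 0.861, 0.736 and 0.854. Reads of ferritin genes can be shared with processed pseudogenes, of which the matrix listed Ftl2-ps with 107 UMIs, so both levels are uncertain, by an amount the files do not give.

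The transporters were scarce. Slc11a2, the importer that takes iron out of the endosome, was at 36.6, 23.03 and 28.3 CPM in clear cells of caput, corpus and cauda. Principal cells held 18.1, 20.4 and 9.11 CPM. The ranges over regions did not overlap, but no ratio reached 4. In the corpus clear over principal was 1.13 [0.773–1.60], on 37 clear cell UMIs. That ratio turned to 0.866 without cells over 20% mitochondrial UMIs and to 0.792 with TMM scaling. Macrophages held 26.8, 13.6 and 15.0 CPM, basal cells 14.1, 17.4 and 11.3 CPM, and red cells 11.0, 9.87 and 9.96 CPM. Slc40a1, the only known iron exporter of mammals, was at 9.73, 34.6 and 32.8 CPM in macrophages, on 4, 28 and 72 UMIs, against 0.952, 8.84 and 1.23 CPM in principal cells, on 21, 93 and 5 UMIs. Clear cells held 14.7 CPM in the caput on 43 UMIs, 12.4 in the corpus and 2.83 in the cauda. Basal cells held 3.44 and 13.3 CPM in caput and corpus, on 12 and 13 UMIs, and no UMI in the cauda, and red cells held 2 UMIs in the corpus and none elsewhere. No Slc40a1 sum reached the 100 UMIs of the size rule, so its ratios are values only. Macrophage over principal was 26.6 in the cauda, and clear over principal was 15.4 [8.96–27.4] in the caput. In principal cells caput over corpus was 0.108 [0.0637–0.1745] and corpus over cauda 7.18 [2.97–22.6].

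Counted by cell type, the members past the size rule against principal cells were mostly the secreted binders. Clear cells had 2 of 6, 1 of 6 and 2 of 5 in caput, corpus and cauda, beside 7.6, 8.12 and 10.1% of all genes, and each was a lower level of Lcn2, Ltf or Trf. Basal cells had 1 of 6, 2 of 6 and 2 of 5, beside 9.02, 6.16 and 9.25%: Trf was lower in the caput, a call lost with thinning (0.291), while in corpus and cauda Lcn2 was higher and Ltf lower. Macrophages had 2 of 6, 3 of 7 and 4 of 6, beside 3.39, 12.1 and 28.7%. Lcn2 was lower in caput and cauda, Ltf lower and Trf higher in corpus and cauda, Fth1 higher in the caput, and Ftl1 higher in corpus and cauda. Most of the lower Lcn2 and Ltf levels in clear cells and macrophages stood near the background or below it. In caput clear cells Lcn2 was at 20.02% and the principal markers at 19.9%. Lcn2 in cauda macrophages, at 19.3% with the markers at 7.25%, did not. Red cells had 0 of 6, 3 of 7 and 2 of 5, beside 5.78, 15 and 28.1%, which in the corpus included the Trf of the single cell above. With the reduced total that Trf call was the only one of the 5 in red cells to remain: the ratios were 0.469 for Ltf and 0.283 for Tfrc in the corpus, and 0.409 for Lcn2 and 0.366 for Ltf in the cauda. Ratios of clear, basal and macrophage cells to principal cells moved by log2 −0.34 to −0.74 with TMM scaling and those of red cells by 0.60 to 1.06.

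Between regions, Lcn2 was also higher in the caput in clear cells, macrophages and red cells, in which the caput level stood near the background. In clear cells Lcn2 stood at 1728, 133 and 22.6 CPM in caput, corpus and cauda, and it was higher in the caput by 12.97-fold and 76.3-fold and in the corpus over the cauda by 5.88-fold. In macrophages it was higher in the caput by 26.3-fold over the corpus and 61.3-fold over the cauda, and in red cells by 25.3-fold and 122-fold. Among members 2, 1 and 1 passed for the 3 pairs of regions in clear cells, with the background values above, beside 3.07, 4.32 and 2.34% of all genes. Ltf, at 0 UMIs in caput clear cells, was at least 66.2-fold lower there than in the corpus, on 109 UMIs. In macrophages 1, 1 and 0 members passed, beside 8.13, 7.13 and 1.26%, and in basal cells 0 for each pair, beside 2.35, 2.7 and 2.42%. In red cells 2, 1 and 1 passed, beside 22.1, 31.5 and 11.4%, the others being the corpus level of Trf against caput and cauda, which holds the single cell above. Macrophage Trf stood at 0.408 for caput over corpus, 0.300 for caput over cauda and 0.734 for corpus over cauda, none of which passed.

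Within a region, principal cells differ along the duct. The caput principal cells were assigned to 4 subsets and the corpus ones to 2, by pairs of segment markers. Each cell went to the marker pair whose share was largest relative to that pair's mean over the principal cells of its region. In 649 caput and 128 corpus cells another pair came close. Lcn2 stood at 10702.3 CPM in the Rnase10 and Lcn9 subset (416 cells), 7943 in the Defb47 and Defb18 subset (560), 10305 in the Cst12 and Adam28 subset (734) and 3095 in the Lcn5 and Rnase13 subset (376). The highest was 3.46-fold [3.38–3.53] the lowest, so the drop of Lcn2 between caput and corpus was larger than any within the caput. As counted, Trf was the most uneven member in the caput, at 44.7, 10.0, 49.4 and 3.74 CPM in the same order, a 13.2-fold [7.49–25.8] span. The lowest of these rests on 12 UMIs. After thinning, 2.40, 1.07, 4.64 and 0.813% of the cells of these subsets held a Trf UMI. Ftl1 showed nearly the opposite order of CPM, at 64.6, 133, 68.1 and 150.1 CPM, a 2.32-fold span, and Tfrc stayed within 39.6 to 43.8 CPM.

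**Figure D4:**
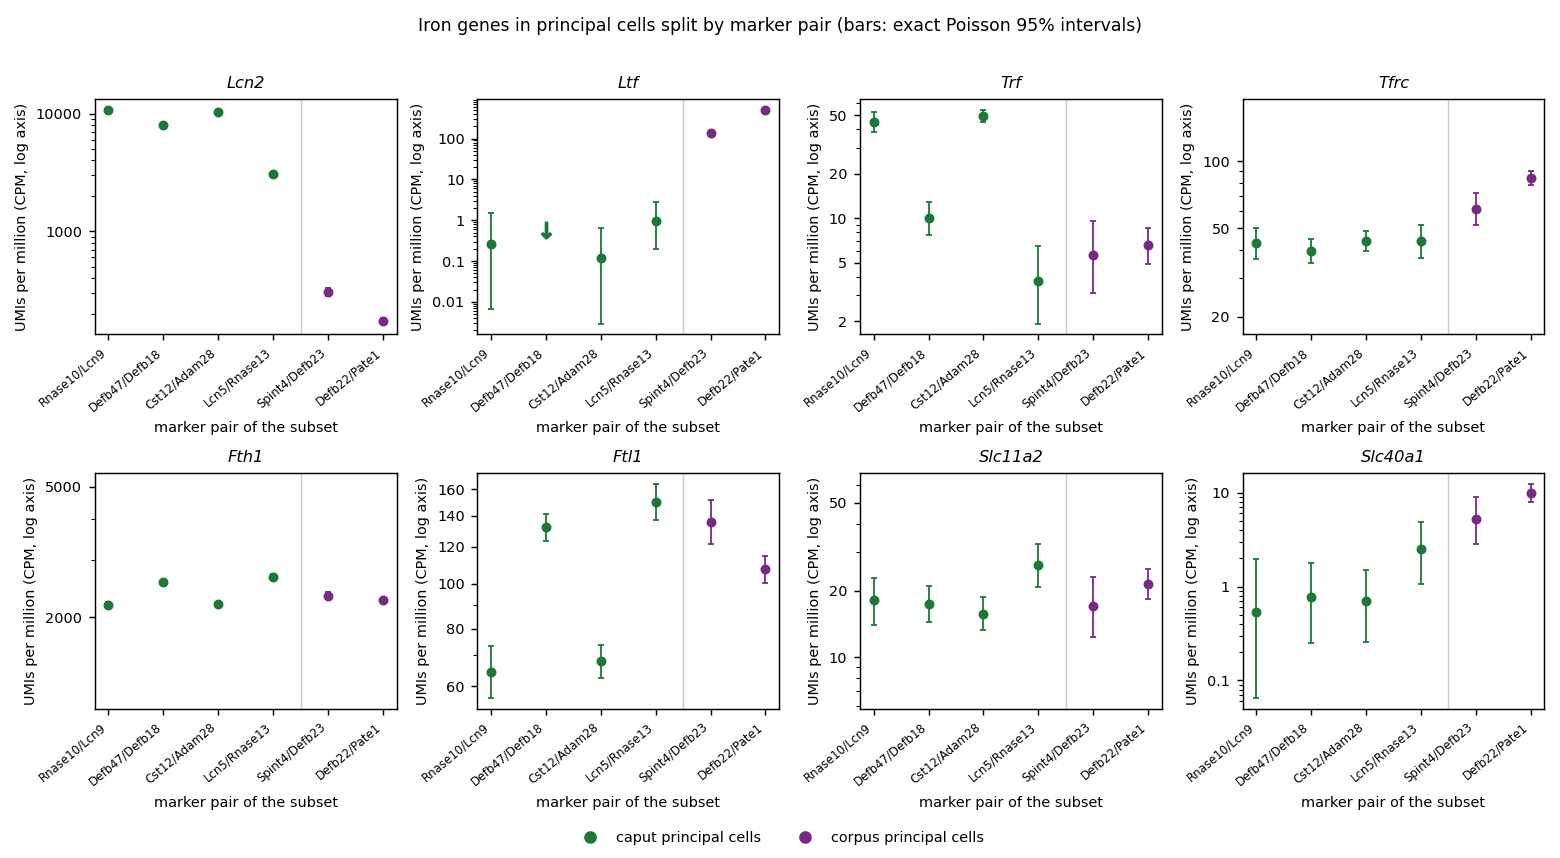
CPM of the 8 genes on a log axis in the 4 caput and 2 corpus subsets of principal cells, named by their segment markers, with exact 95% Poisson intervals from counting error. Trf was at 44.7 and 49.4 CPM in the Rnase10 and Lcn9 and the Cst12 and Adam28 subsets, against 10.0 and 3.74 CPM in the other two caput subsets.

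In the corpus, Ltf stood at 496 CPM in the Defb22 and Pate1 subset (1328 cells) and 138 CPM in the Spint4 and Defb23 subset (557 cells), a ratio of 3.59 [3.22–4.02]; after thinning the levels were 358 and 224 CPM. Lcn2 had the reverse order, 174 and 306 CPM. All 4 caput subsets held between 0 and 3 Ltf UMIs. Slc40a1 was at 9.93 and 5.26 CPM in the same 2 corpus subsets, and Fth1 at 2267 and 2333 CPM.

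Cell by cell, caput principal cells held a median of 88.7 Lcn2 UMIs per 10000, with 10% of cells below 29.4 and 10% above 128. In the corpus 59.3% and in the cauda 76.5% of principal cells held none. Ltf had a median of 3.30 UMIs per 10000 in the cauda, with 10% of cells above 12.7, while 53.1% of corpus principal cells held none. Fth1 was even, with medians of 23.01, 23.02 and 18.9 UMIs per 10000 in caput, corpus and cauda.

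Across the 15 sums of region and type, the genes most like each member were found among 4973 genes by Pearson correlation of log2(CPM + 10), as a description: the sums share libraries and background RNA. Ltf was most like Ly6f (0.99), Defb11 (0.98) and Gpx3 (0.98), of which Ly6f and Gpx3 are among the principal markers. Trf was most like Clec7a (0.91), Alox5ap and Mgl2 (both 0.89). Lcn2 was most like Gja1 (0.94), Fth1 most like Cyfip1 (0.97), and Ftl1 most like Ap2a2 (0.95). Among the members, Fth1 correlated with Ftl1 at 0.76 and with Slc40a1 at 0.68, and Lcn2 with Ltf at −0.60.

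Of 67 further genes of iron and haem handling listed by function, 63 were in the matrix. Among uptake genes, 1 was higher and 2 were lower in caput than in corpus principal cells of 5 with enough UMIs, beside 12.8% of all genes for this comparison. Lrp2 (megalin), an endocytic receptor that in kidney takes up several iron carriers, stood at 3.95, 145 and 274 CPM in principal cells of caput, corpus and cauda, and the corpus and cauda levels were 36.9-fold and 69.5-fold that of the caput. Slc39a8, a metal importer, was at 2.495, 26.7 and 0.985 CPM there. Steap1, named after its values were seen, was the uptake gene higher in the caput, on 121 UMIs against 1 in the corpus. Among sensing and storage genes 1 of 8 was higher in the caput than in the corpus, beside the same 12.8%. This was Epas1, a hypoxia-inducible transcription factor at 17.7, 2.09 and 4.19 CPM. The haem exporter Abcg2 was the 1 of 7 haem genes to pass, beside the same 12.8%, at 28.1, 1.81 and 0.246 CPM. The sensing and haem counts are thus close to the share of all genes.

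**Figure D5:**
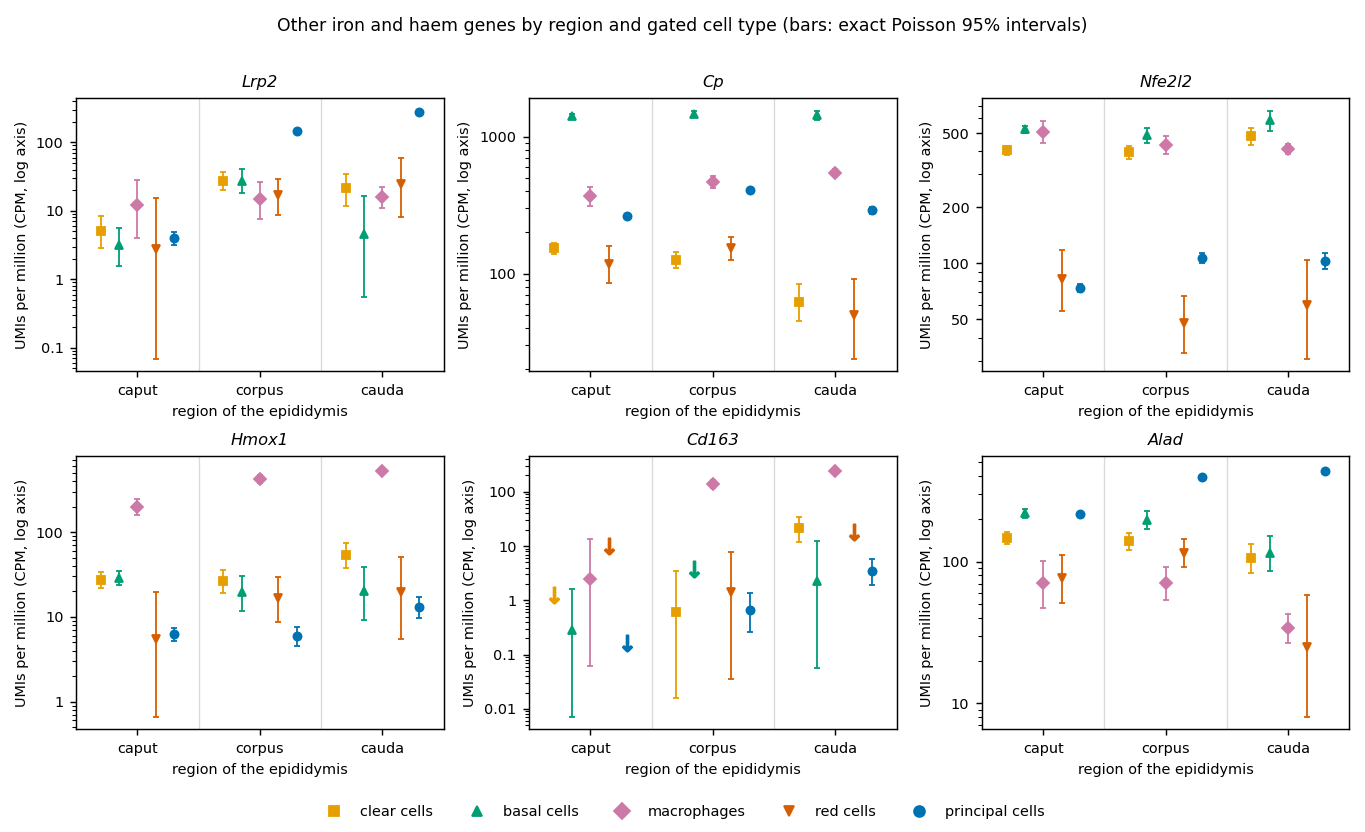
CPM on a log axis of 6 further iron and haem genes by region and cell type with exact 95% Poisson intervals from counting error; arrows mark the upper limit where no UMI was counted. Lrp2 stood at 145 and 274 CPM in corpus and cauda principal cells, and Hmox1 at 422 and 529.9 CPM in corpus and cauda macrophages.

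Genes that break down haem and oxidise exported iron marked the other types. Hmox1, which opens the haem ring and frees its iron, stood at 199, 422 and 529.9 CPM in macrophages of caput, corpus and cauda, against 6.21, 5.89 and 13.1 CPM in principal cells, 71.6-fold in the corpus and 40.6-fold in the cauda. The haemoglobin scavenger receptor Cd163 was at 2.43, 139.8 and 246 CPM in macrophages, and its caput level was below that of the corpus and cauda by the size rule on 1 UMI against 113 and 540. Among haem genes 0 of 7, 3 of 6 and 5 of 7 were higher in macrophages than in principal cells of caput, corpus and cauda, and 1 was lower in each of corpus and cauda, beside 3.39, 12.1 and 28.7% of all genes in either direction. With TMM scaling Blvrb in the corpus (3.56) and Blvra in the cauda (3.92), which both reduce the products of haem breakdown, no longer passed. Cp, the ferroxidase that loads exported iron onto transferrin, was at 1428, 1466 and 1442 CPM in basal cells, against 265, 410.3 and 290 CPM in principal cells, past the size rule in caput (5.40) and cauda (4.98) and not in the corpus (3.57); with TMM scaling the caput and cauda ratios were 3.55 and 2.99 and both calls were lost. Nfe2l2, a regulator of ferritin genes, was at 523, 487 and 584 CPM in basal cells, against 73.7, 107 and 103 CPM in principal cells. It was not particular to basal cells, with 405, 395 and 480 CPM in clear cells and 508, 432 and 411 CPM in macrophages. Basal over principal passed the size rule in each region as counted. With TMM scaling it passed in the caput (4.67) and not in corpus (2.97) or cauda (3.41). Of the genes for haem synthesis and iron-sulphur clusters, 0 of 16 with enough UMIs passed between caput and corpus principal cells, and 1 of 16 between caput and cauda, Urod, higher in the caput (4.07), beside 12.8% of all genes in each.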

How the data were processed

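The deposited file was 1 matrix of UMI counts per gene and cell for all 3 libraries. Reads were aligned with STAR 2.7.3a to GRCm38.p6 and counted with UMI-tools, per the submitters' processing notes; how cells were called and whether strand was used: not given in the sources used here. Members, marker lists and further iron genes were chosen with earlier results of these data known.

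Cells with at least 200 detected genes were kept (4939 of 4961, 4831 of 4959 and 4785 of 4925 in caput, corpus and cauda). Types were gated by the share of a cell's UMIs in marker lists, with thresholds set after looking at the marker values: 8, 4 and 3% principal markers in caput, corpus and cauda, 10% of 4 haemoglobin genes for red cells, 0.2% with 3 markers for clear cells, 0.1% with 3 markers for basal cells, and 0.2% with 5 markers for macrophages. Principal markers lay near the threshold in 671, 838 and 540 cells. No doublet caller was run; the 481, 272 and 460 cells that passed several gates and the 541, 964 and 741 that passed none were left out of the types. Total UMIs were 41500792, 21495211 and 18341476.

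Ratios carry exact binomial intervals conditional on the summed counts, Poisson and Clopper-Pearson intervals give levels and shares, and a level at 0 was bounded with a floor of 3 counts. An exact paired test over 3 libraries cannot go below p = 0.25 and was not made. All 8 members are named; further genes are named, up to 8 per function group, by their summed UMIs, with Steap1 as the exception. Python 3.11.15 (numpy 2.4.6, scipy 1.17.1, pandas 2.3.3, matplotlib 3.10.9) and R 4.3.3 with edgeR 4.0.16, for TMM scaling factors of the sums, were used, and the ratio step was tested on simulated data. Alternatives were stricter and looser gates, 500 detected genes, cells over 20% mitochondrial UMIs left out, a total without haemoglobin, mitochondrial and principal marker genes, thinning to 1000 UMIs, TMM scaling, 20 UMIs and a fold of 2 in the size rule, and red cells with at least 50% haemoglobin, the last, like TMM scaling of the further iron genes, added after the data were seen. The splits by S100a8 and the levels without the highest cell were also added after the data were seen.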

Additional observations from a re-analysis of the deposited data

Results flagged for a closer look

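Trf took opposite directions in different cells. Red over principal cells was 0.181 [0.0219–0.657] in the caput on 2 red cell UMIs, 33.2 [24.7–45.0] in the corpus and 3.64 [1.57–7.48] in the cauda. Caput over corpus was 4.77 in principal cells, 0.408 in macrophages and 0.0261 in red cells. Caput over cauda was 2.47 in principal cells, 0.300 in macrophages and 0.123 in red cells. With 1 library per region these differences between types were not tested, the corpus red cells owe 116 of 150 UMIs to 1 cell, and the principal caput over cauda value was below 1 (0.833) after thinning.

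Slc40a1 also went both ways between caput and cauda, at 5.19 in clear cells on 45 UMIs and 0.297 in macrophages on 76 UMIs. This difference was not tested either, and the cauda clear sum rests on 2 UMIs.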

How the results depend on the processing

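No paired analysis was possible because each region had 1 library, and no replicate could be left out for the same reason. Among principal cells, 5 member calls passed the size rule over the 3 pairs of regions, and 4 to 7 under the alternatives. Against principal cells, 24 calls passed over the types and regions, and 17 to 27 under all alternatives but one: with a fold of 2 in place of 4 there were 43. No ratio that passed the size rule changed direction under any setting tried. A setting that left the second sum of a ratio at 0 gave no finite ratio, and a first sum at 0 gave a ratio of 0. Thinning leaves fewer UMIs, leaves out cells below 1000 UMIs and gives the remaining cells equal weight, so the ratios themselves can move. It ended 1 call between regions, Trf for caput over corpus in principal cells (4.77 as counted, 2.39 thinned). Against principal cells it ended 7 calls. For Trf these were in caput clear (0) and basal cells (0.291), corpus macrophages (30.0) and corpus red cells (6.10). For Lcn2 they were in cauda clear cells (0.137 as counted, 0.345 thinned), macrophages (0.258) and red cells (0.240). Ltf for caput over corpus in principal cells, 0.00055 on 5 caput UMIs, was 0.000119 with stricter gates and 0.00153 with thinning. The corpus red cell Trf ratio of 33.2 was 2.88 with looser gates and 2.24 with red cells of at least 50% haemoglobin. TMM scaling ended 4 calls: Fth1 in caput macrophages (2.75), Ftl1 in corpus macrophages (3.55), Ltf in corpus red cells (0.302) and Lcn2 in cauda red cells (0.251). The total without haemoglobin, mitochondrial and principal marker genes ended 5: Fth1 in caput macrophages (3.83) and Ltf and Tfrc in corpus and Lcn2 and Ltf in cauda red cells. With 20 UMIs in place of 100 the Slc40a1 ratios 0.108 for caput over corpus and 7.18 for corpus over cauda in principal cells, 15.4 for caput clear cells and 26.6 for cauda macrophages passed. Depth limits Slc40a1 and Slc11a2, whose sums in basal and red cells held 0 to 49 UMIs.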
